A study of Mus musculus with 4 samples.

Results

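The genes described here encode the extrinsic route to apoptosis: the death ligands Fasl and Tnfsf10 (TRAIL), their receptors Fas and Tnfrsf10b, the adaptor Fadd, the initiator protease Casp8, its regulator Cflar and the kinase Ripk1. These 8 genes, of 18193 genes named singly on the array, were taken by their platform symbols, with every probe set of each. Of the 8 genes, 7 had at least 1 such probe set, giving 16 probe sets, and Ripk1 was not analysed here because no probe set in the annotation used carried its symbol alone. RNA came from CD8 T cells sorted from spleens of wild-type B6 mice, with 2 arrays for each of 2 groups. Cells of the Ly49+ group were CD44+CD122+Ly49+, named CD8+ Treg by the submitters. Cells of the Ly49- group were CD44+CD122+Ly49-, named conventional memory type. Both groups therefore share the CD44+CD122+ memory phenotype, and no treatment is given in the labels. Ly49 proteins, products of the Klra gene family, bind MHC class I. The labels give no age, no sex and no number of mice, and do not say whether different animals stood behind the replicates. The p-values therefore cover the spread among these 4 arrays, which may be technical.

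A cytotoxic T cell can kill by displaying Fas ligand or TRAIL, which bind Fas or the TRAIL receptor on the target. The engaged receptor gathers FADD, and FADD recruits caspase-8 through paired death effector domains, which starts the caspase cascade. The CFLAR protein (cFLIP) resembles caspase-8 but lacks its protease activity, and RIPK1 links the same receptors to NF-kappaB signalling or, when caspase-8 is blocked, to necroptosis. In activated T cells Fas and its ligand also limit clonal expansion, and mice lacking either accumulate lymphocytes. In mouse, Tnfrsf10b encodes the TRAIL receptor that carries a death domain.

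Array medians lay between 188.5 and 190.4 and the 4 arrays correlated pairwise between 0.996 and 0.998 on the log2 scale. Precision is limited by the number of arrays. T cell markers were bright: of 8 measured none passed the test between groups, and the Cd8a intensity was 18186 ± 251 (mean ± SD, n = 2) in Ly49+ and 18931 ± 196 in Ly49- cells, against 140.5 ± 11.0 and 144 ± 5.01 for Cd4. The Ly49 receptor gene Klra7, whose probe set is open to cross-hybridisation with related Klra transcripts, was 8932 ± 52.8 against 905 ± 7.17. Some genes listed as markers of other cells moved with the groups. Of 15 myeloid markers 11 were higher and 1 was lower in Ly49+ cells, with a summed intensity of 24733 to 27679 on the Ly49+ arrays and 17106 to 17155 on the Ly49- arrays. Of 9 NK cell markers 5 were higher (sums of 19574 to 20098 against 6769 to 6821). The largest part of the NK sum was Klre1 (means of 11670 in Ly49+ and 2508 in Ly49- cells), and 3 of the 9 differences were below 0. Of 7 dendritic cell markers 2 were higher (4751 to 5154 against 4075 to 4135). Of 9 B cell markers and 3 CD4 T cell markers none passed (sums of 16542 to 17656 against 17782 to 18803, and of 291 to 323 against 319.6 to 319.8). Of these lists, Ncr1 and Klrb1b (NK cells), Itgam (myeloid cells), Cr2, Fcer2a and Pax5 (B cells) and Cd40lg (CD4 T cells) were read below 70.3 on all 4 arrays, the highest intensity of any unspiked Bacillus control and the background level used here. Other members were well above it, among them the macrophage genes Csf1r (means of 4000.0 in Ly49+ and 2691 in Ly49- cells) and C1qb (4572 and 2929.6). So were the B cell genes Ighm (14015 and 14929), which made up most of the B cell sum, and Cd79b (2035 and 2475). Of the 9 B cell markers 6 differences were above 0 and 3 below. Ms4a1 (348 and 250.5) and Cd79a (232 and 188) were among the higher ones. The 3' to 5' ratio of Actb, a measure of RNA integrity, was 1.26 and 1.29 for Ly49+ replicates 1 and 2, against 1.37 and 1.34 for Ly49-. The part of these differences in the values below was not tested. Ly49- replicate 1 stood apart in 1 respect, a weaker reading of the older set of hybridisation control probe sets (597 against 2102 to 2208 on the other arrays for the 5' BioB probe set).

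No probe set of the death pathway genes passed the test. Of the 16 probe sets, 0 had a limma adjusted p under 0.05, where 1.19% of all 45037 probe sets did (0.766% higher and 0.429% lower in Ly49+ cells), and 2 had an unadjusted p under 0.05, where 13.3% of all probe sets did. Differences on the log2(intensity + 16) scale, Ly49+ minus Ly49-, ran from -0.27 for Fas to 0.40 for Fasl, with a median of -0.04 beside -0.03 over all probe sets. All 16 probe sets were read above the background level on every array, at intensities from 109 to 7544. The dimmest, Tnfrsf10b 1422344_s_at (means of 117 in Ly49+ and 130 in Ly49- cells), read no higher than Cd4 in these CD8 cells (140.5 and 144). A reading above the background level therefore does not by itself show that a transcript was present. The 95% intervals reached no lower than -0.48 and no higher than 0.74. In a sample of many cells, fewer cells making a transcript and less transcript per cell cannot be told apart.

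**Figure D1:**
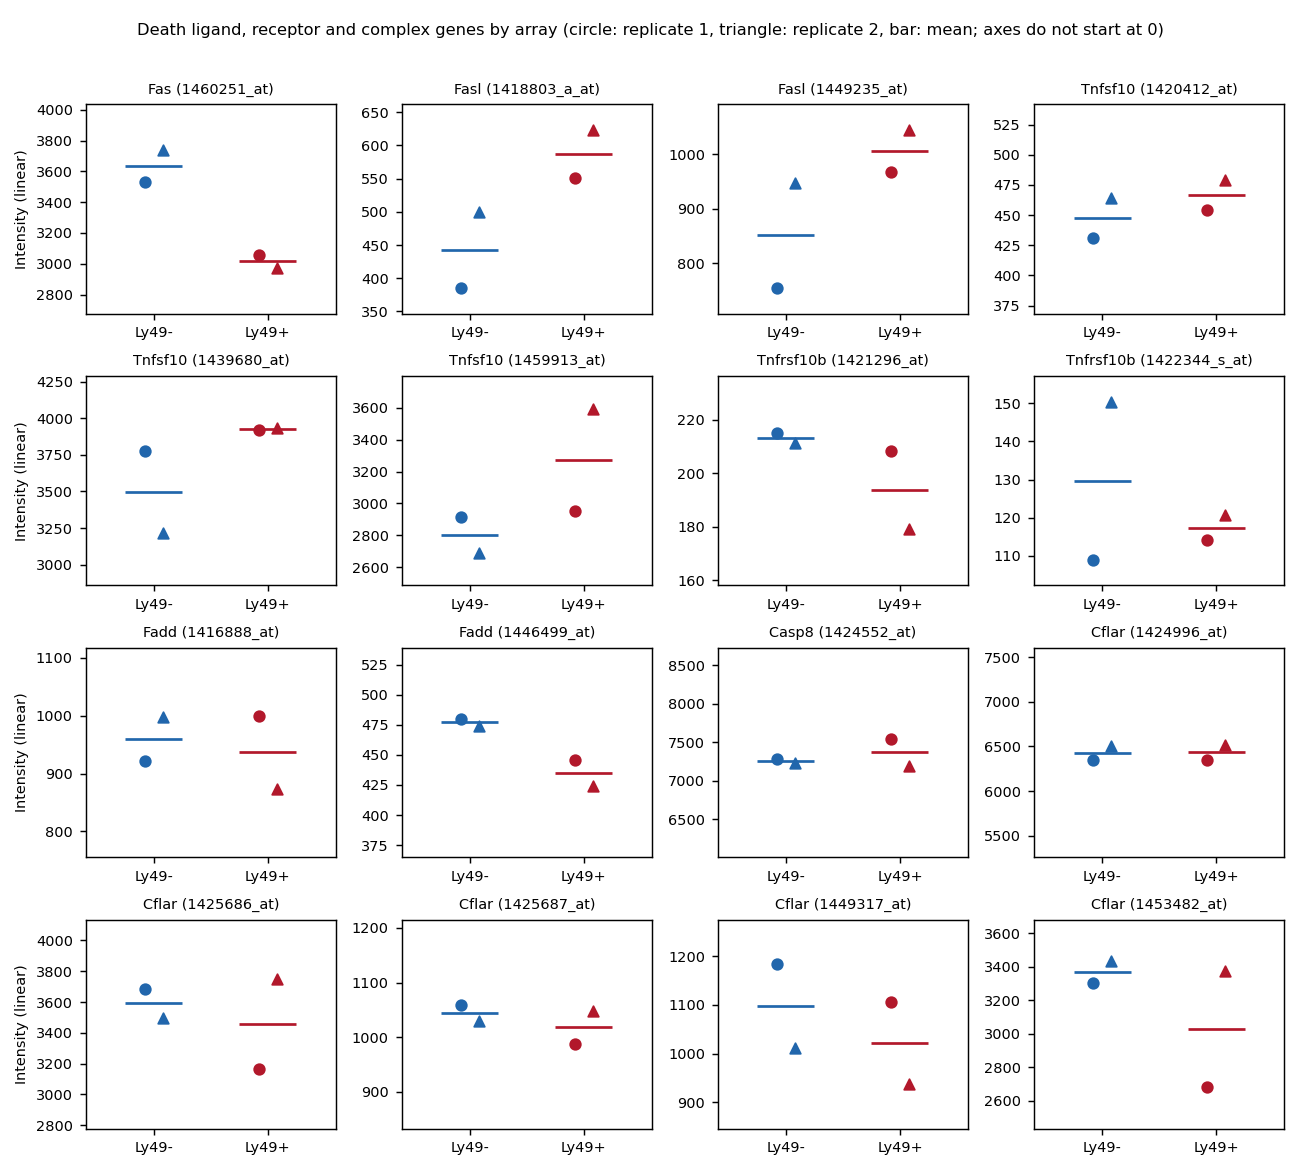
Linear intensity of each of the 16 probe sets on the 4 arrays, with Ly49- arrays in blue, Ly49+ arrays in red, replicate 1 as circles, replicate 2 as triangles and group means as bars; each panel has its own axis. Fas is lower on both Ly49+ arrays (3058 and 2974) than on both Ly49- arrays, both Fasl probe sets are higher, and the Casp8 and brightest Cflar panels overlap.

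**Figure D2:**
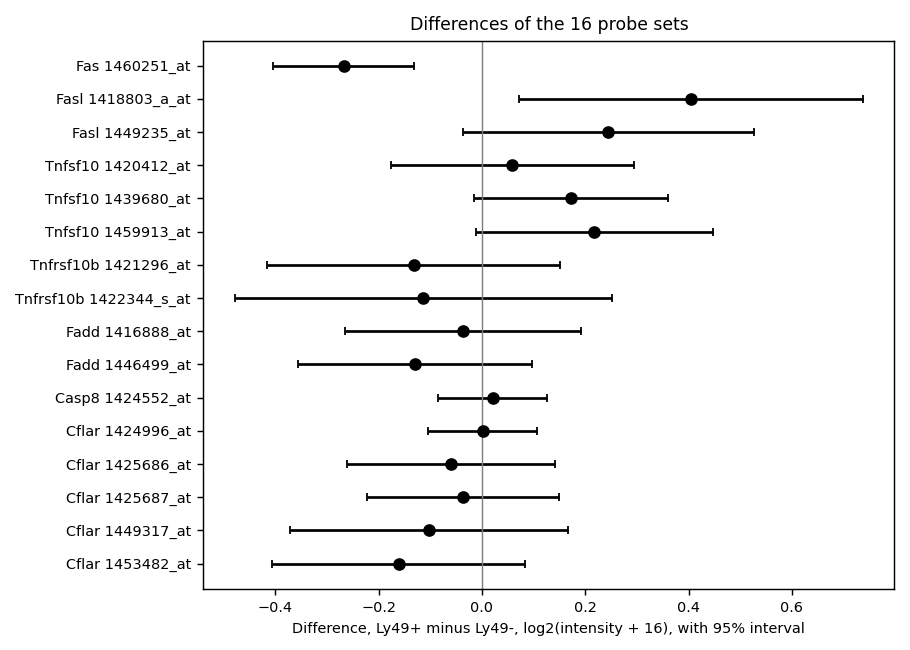
Difference between groups for each probe set on the log2(intensity + 16) scale (Ly49+ minus Ly49-), with points for the estimate and bars for its 95% interval from limma. The intervals of Fas (-0.40 to -0.13) and of 1 Fasl probe set (0.07 to 0.74) leave out 0, and none of the 16 passed after adjustment over all probe sets.

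Of the ligands, Fasl encodes Fas ligand, a membrane protein that T and NK cells store in granules and display on activation. Probe set 1418803_a_at read 551 and 624 on the Ly49+ arrays, replicates 1 and 2, and 385 and 500.2 on the Ly49- arrays. Both Ly49+ arrays were above both Ly49- arrays, and replicate 2 was above replicate 1 in each group. The means were 587 ± 51.5 and 443 ± 81.6 (SD, n = 2), a difference of 0.40 ± 0.14 SE or 1.32-fold (95% interval 1.05 to 1.67), which did not pass (limma adjusted p = 0.29, unadjusted p = 0.024).

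The other Fasl probe set, 1449235_at, read 967 and 1044 on the Ly49+ arrays and 754 and 948 on the Ly49- arrays. It showed the same order of arrays, with a gap of Ly49+ replicate 1 to Ly49- replicate 2 that was small beside the spread within the Ly49- group. The difference was 0.24 ± 0.12 SE (95% interval -0.04 to 0.53, adjusted p = 0.44). Without Ly49- replicate 1 the differences of the Fasl probe sets were 0.22 and 0.08, and without Ly49- replicate 2 they were 0.59 and 0.41, so the size rested on which Ly49- array was kept.

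Tnfsf10 encodes TRAIL, which kills cells that carry its death receptor and is induced in lymphocytes by interferon. Probe set 1439680_at read 3923 and 3932 on the Ly49+ arrays and 3775 and 3214 on the Ly49- arrays. Probe set 1459913_at read 2953 and 3594 against 2913 and 2691. In both, the groups did not overlap, but replicate 1 of the groups lay close together.

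The differences were 0.17 ± 0.08 SE (95% interval -0.02 to 0.36, adjusted p = 0.41) and 0.22 ± 0.10 SE (-0.01 to 0.45, adjusted p = 0.40). Between replicates 1 they were 0.06 and 0.02, and between replicates 2 they were 0.29 and 0.42. Over the fits that left out 1 array they ran from 0.06 (without Ly49- replicate 2) to 0.29 (without Ly49- replicate 1) and from 0.08 (without Ly49+ replicate 2) to 0.36 (without Ly49+ replicate 1). The remaining Tnfsf10 probe set, 1420412_at, read 455 and 479 against 431 and 464, with overlapping groups and a difference of 0.06 (95% interval -0.18 to 0.29, adjusted p = 0.85).

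Of the receptors, Fas encodes the death receptor for Fas ligand and was the member with the smallest p. Its probe set, 1460251_at, read 3058 and 2974 on the Ly49+ arrays and 3530.5 and 3738 on the Ly49- arrays. Both Ly49+ arrays were below both Ly49- arrays, and the gap between groups was larger than the range within either. The means were 3016 ± 59.7 and 3634 ± 146, a difference of -0.27 ± 0.06 SE or 1.20-fold lower (95% interval -0.40 to -0.13 on the log2 scale).

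The call on Fas differed between fits. Among all 45037 probe sets its limma adjusted p was 0.10 (unadjusted p = 0.0023), above the threshold. With 1 probe set per gene, the brightest, it was 0.029 over 18193 genes (unadjusted p = 0.00084), and with probe sets averaged per gene 0.035, both past it. The difference was the same in these fits while the unadjusted p was smaller in both per-gene fits, and the cause was not tested. The difference without Ly49- replicate 1 was -0.31, and over the fits that left out 1 array it lay between -0.31 and -0.23 with adjusted p from 0.18 to 0.43.

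Across the 4 arrays, the named probe sets with the pattern most like that of Fas were those of Pepd, a dipeptidase, Mad1l1, a spindle checkpoint protein, and Slk, a kinase. Their Pearson correlations with Fas were all above 0.99, as were those of 563 of the 23996 probe sets compared. With 4 arrays in 2 groups such a likeness is common. Their own differences were -0.25, -0.27 and -0.11 with adjusted p of 0.13, 0.30 and 0.56.

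The sequence upstream of each gene is shown for Fasl and Fas, the ligand and receptor that alone had an unadjusted p under 0.05. Each is the 250 bases before the RefSeq transcript start (build GRCm38.p6), on the gene's own strand from 5' to 3', at chr1:161788496-161788745 on the minus strand for Fasl and chr19:34290409-34290658 on the plus strand for Fas. Capitals mark GGAAA or its complement TTTCC, the core bound by NFAT factors, and GGGCGG or CCGCCC, the GC box of Sp1.
Fasl: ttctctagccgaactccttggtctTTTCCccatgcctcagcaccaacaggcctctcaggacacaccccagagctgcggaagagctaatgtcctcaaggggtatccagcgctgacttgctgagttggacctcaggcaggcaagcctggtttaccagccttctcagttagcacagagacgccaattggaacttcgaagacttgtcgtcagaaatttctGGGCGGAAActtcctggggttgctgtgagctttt
Fas: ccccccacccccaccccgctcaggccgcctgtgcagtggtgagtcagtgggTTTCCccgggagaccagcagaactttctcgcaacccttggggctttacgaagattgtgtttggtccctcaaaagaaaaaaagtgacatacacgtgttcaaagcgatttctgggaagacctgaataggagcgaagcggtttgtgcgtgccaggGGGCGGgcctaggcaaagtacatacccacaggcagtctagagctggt
Fasl held 2 matches to the NFAT core and 1 GC box, of which 1 core and the GC box overlap, and Fas held 1 of each. Of 32851 promoter windows of this length, 55.6% held the NFAT core and 32.7% the GC box on either strand, so both matches are common. A match describes these letters and is no measure of binding.

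Tnfrsf10b, the receptor for TRAIL, was read at low intensities. Probe set 1421296_at read 208 and 179 on the Ly49+ arrays and 215 and 211 on the Ly49- arrays, with no overlap and a narrow gap (difference -0.13, 95% interval -0.41 to 0.15, adjusted p = 0.69). Probe set 1422344_s_at, of a kind open to cross-hybridisation, read 114 and 121 against 109 and 150.4. Its groups overlapped, with a difference of -0.11 (95% interval -0.48 to 0.25, adjusted p = 0.81). The intervals of both probe sets were wide.

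Fadd, the adaptor that joins the receptors to caspase-8, had 2 probe sets. Probe set 1416888_at read 999 and 874 on the Ly49+ arrays and 922 and 998 on the Ly49- arrays, with overlapping groups. Probe set 1446499_at read 446 and 424 against 480.2 and 474, without overlap. The differences were -0.04 (95% interval -0.26 to 0.19, adjusted p = 0.91) and -0.13 (-0.36 to 0.10, adjusted p = 0.61).

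Casp8, the initiator caspase of the pathway, read 7544 and 7193 on the Ly49+ arrays and 7287 and 7236 on the Ly49- arrays. The Ly49+ arrays lay on either side of both Ly49- arrays. The difference was 0.02 ± 0.04 SE (adjusted p = 0.89), with a 95% interval of -0.08 to 0.13, among the narrowest of the 16 probe sets.

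Cflar encodes the caspase-8 relative cFLIP, which competes for FADD, and is the next protein-coding gene to Casp8 in RefSeq. Its brightest probe set, 1424996_at, read 6351 and 6516 on the Ly49+ arrays and 6350.5 and 6504 on the Ly49- arrays. The same-numbered arrays nearly coincided, with a difference of 0.00 ± 0.04 SE (95% interval -0.10 to 0.11, adjusted p = 0.99). The other Cflar probe sets overlapped between groups as well.

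Probe set 1453482_at had the largest of these differences, with 2684 and 3378 on the Ly49+ arrays and 3304 and 3432 on the Ly49- arrays. Here Ly49+ replicate 1 was low and the remaining 3 arrays lay close together. Probe set 1425686_at read 3163 and 3749 against 3685 and 3499, again with Ly49+ replicate 1 lowest. The differences of these and of 1425687_at and 1449317_at were -0.16, -0.06, -0.04 and -0.10, with adjusted p between 0.56 and 0.88, and their 95% intervals together ran from -0.41 to 0.17.

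Counted over all members, 4 probe sets were higher on both Ly49+ arrays than on both Ly49- arrays, where 15.7% of all probe sets were, and all 4 belonged to the ligands Fasl and Tnfsf10. In 3 probe sets, of Fas, Tnfrsf10b and Fadd, the groups were separate in the other direction, where 29.1% of all probe sets were. Together 7 of 16 were separate, where 44.9% of all probe sets were, and the remaining 9 overlapped. Probe sets of 1 gene read the same RNA, so they are not independent of each other.

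**Figure D3:**
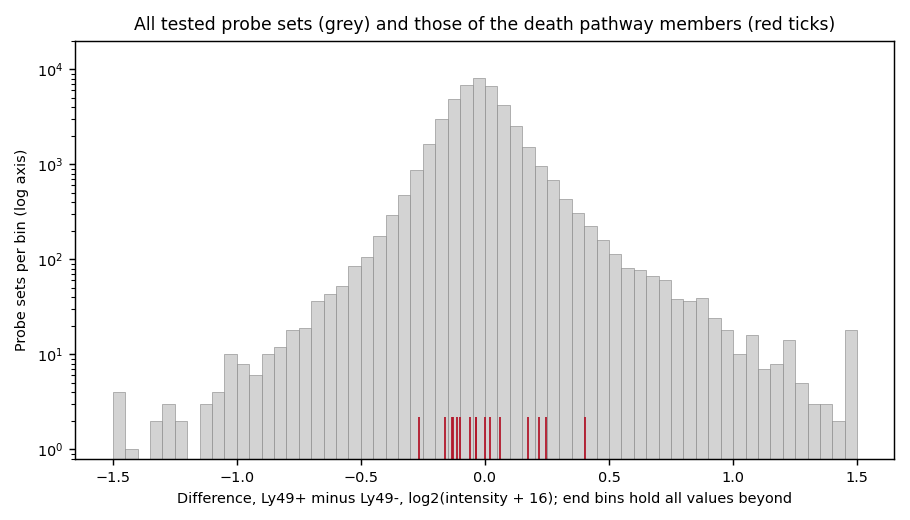
Number of probe sets (log axis) by difference between groups on the log2(intensity + 16) scale, Ly49+ minus Ly49-, for all 45037 tested probe sets in grey, with red ticks at the 16 probe sets of the death pathway genes. The ticks run from -0.27 to 0.40, with 4.22% of all probe sets below the lowest and 2.23% above the highest.

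The wider pathway was read over 78 further genes, of which 70 were measured, each by its brightest probe set. Of these, 1 rose, 3 fell and 66 did not pass, against 1.67% of all 18193 genes that passed in either direction (0.973% higher and 0.693% lower). The median difference of the 70 genes was -0.07, beside -0.04 over all genes. The genes that passed were the death receptor gene Tnfrsf21, the inflammatory caspase gene Casp4, the ubiquitin-binding NF-kappaB inhibitor gene Tnip1 and the phosphatase gene Ptpn13.

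Among other TNF family ligands and receptors, 1 of 11 measured genes rose, none fell and 10 did not pass, with a median of -0.05. Tnfrsf21, which encodes the death-domain receptor DR6, read 826 and 951 on the Ly49+ arrays and 444 and 454 on the Ly49- arrays. It was 1.94-fold higher (difference 0.96 ± 0.10 SE, adjusted p = 0.013), by a probe set open to cross-hybridisation. Its other probe set, 1422740_at, read 186 and 220.5 against 136 and 134 and did not pass (0.54, adjusted p = 0.13, the same value when such probe sets were left out). Among the fits that left out 1 array, Tnfrsf21 passed without Ly49+ replicate 1 (adjusted p = 0.045) and not without Ly49+ replicate 2 (0.089), Ly49- replicate 1 (0.10) or Ly49- replicate 2 (0.11).

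Tnfrsf25, which encodes the death-domain receptor DR3 and costimulates T cells, read 295 and 269 on the Ly49+ arrays and 385 and 419 on the Ly49- arrays. The groups were separate, and the difference of -0.49 ± 0.11 SE did not pass (adjusted p = 0.12), but did with 1 probe set per gene (0.042) and with the mean of probe sets (0.031). Tnfsf14, the ligand LIGHT, read 2529 and 2582 against 2038 and 2241 (difference 0.26, adjusted p = 0.18). The myeloid and NK cell marker sums above were higher on the same Ly49+ arrays, and their part in these values was not tested.

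Of 7 other measured caspases, 1 fell, none rose and 6 did not pass, with a median of -0.06. Casp4, the mouse caspase-11 that senses bacterial lipopolysaccharide inside cells, read 280 and 316 on the Ly49+ arrays and 463 and 493 on the Ly49- arrays. The difference was -0.66 ± 0.11 SE (adjusted p = 0.049), at the edge of the threshold, and it passed in none of the fits that left out 1 array (adjusted p from 0.14 to 0.28). Adjusted p was 0.065 with a pseudocount of 64, 0.065 without a trend of the spread and 0.051 without probe sets open to cross-hybridisation.

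Casp1, which cleaves pro-interleukin-1 in the inflammasome, was also lower on both Ly49+ arrays than on both Ly49- arrays, at 568 and 606 against 851 and 815. Its difference of -0.49 ± 0.09 SE missed the threshold (adjusted p = 0.059), and passed with 1 probe set per gene (0.015), the mean of probe sets (0.012) and a robust spread (0.043). Casp9 differed by 0.04, Casp2 by -0.01 and Casp6 by -0.06 with adjusted p between 0.79 and 0.97, and Casp12 and Casp14 were read below the background level on all arrays. Of the 15 myeloid markers, 11 were higher on these Ly49+ arrays and S100a9 was lower (difference -0.53, adjusted p = 0.038), with S100a8 at -0.49 (0.091), and their part was not tested.

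Of 23 measured genes of the RIPK1 complex and necroptosis, 1 fell, none rose and 22 did not pass. The median difference was -0.10, beside -0.04 over all genes, and 18 of the 23 differences were below 0, as were those of 65.3% of all genes. At an unadjusted p under 0.05 there were 9 of 23 genes, all lower in Ly49+ cells, where 15.5% of all genes were past that level in either direction. The share of all genes past it in the lower direction alone was not computed. Such counts were not particular to this list. They were 4 of 11 for the TNF family, 6 of 16 for the modulators, 2 of 7 for other caspases and 1 of 13 downstream. Over all 70 genes the count was 22. Tnip1, which encodes ABIN1, read 5357 and 5118 on the Ly49+ arrays and 6344 and 6409 on the Ly49- arrays.

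Its difference was -0.28 ± 0.05 SE (adjusted p = 0.048), and it did not pass after quantile normalization (0.058), with a pseudocount of 64 (0.052), without a trend of the spread (0.19) or without any 1 array (0.16 to 0.31). The linear ubiquitin genes Otulin, a deubiquitinase, and Rnf31, the ligase subunit HOIP, differed by -0.23 and -0.19 (adjusted p = 0.16 and 0.20). The necroptosis kinase gene Ripk3 differed by -0.13 (adjusted p = 0.43), its effector Mlkl by 0.01 (0.98) and the adaptor Tradd by 0.00 (0.99).

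Downstream of the caspases, none of 13 measured genes passed, with a median of -0.04. Bak1, a pore former of the mitochondrial membrane, read 1973 and 1912 on the Ly49+ arrays and 1586 and 1677 on the Ly49- arrays (difference 0.25, adjusted p = 0.19). Cycs, which encodes cytochrome c, differed by 0.10 (adjusted p = 0.42) and Dffa, the inhibitor of the caspase-activated nuclease, by -0.13 (0.43). Other probe sets of these genes gave 0.06 for Bak1, from -0.05 to 0.23 for Cycs and 0.01 for Dffa, and none passed. Bid, which caspase-8 cleaves to reach the mitochondria, differed by 0.05 (adjusted p = 0.76).

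Of 16 modulators of death receptors, 1 fell, none rose and 15 did not pass, with a median of -0.04. Ptpn13, a phosphatase that binds the tail of human Fas, read 51.7 and 59.4 on the Ly49+ arrays and 114 and 142 on the Ly49- arrays. Another Ptpn13 probe set, 1431791_a_at, was below the background level on all 4 arrays (means of 34.8 and 49.8) and did not pass (adjusted p = 0.17). The brighter probe set had a Ly49- mean of 128, below that of Cd4 in these cells (144), which does not show that the transcript was present. Both its Ly49+ arrays were below the background level, so only a bound is given, at least 1.66-fold lower against that level (adjusted p = 0.023). It did not pass without a trend of the spread (0.056) or without any 1 array (0.086 to 0.14).

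Tmbim1 encodes a membrane protein of the Bax-inhibitor family. Its Ly49- mean, 127, was no higher than that of Cd4 in these cells (144). Tmbim1 read 211 and 200.2 on the Ly49+ arrays and 139 and 116 on the Ly49- arrays. Its difference of 0.63 ± 0.13 SE did not pass (adjusted p = 0.082), and passed with 1 probe set per gene (0.024) and with the mean of probe sets (0.023). Tmbim4, of the same family, differed by 0.28 (adjusted p = 0.20).

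**Figure D4:**
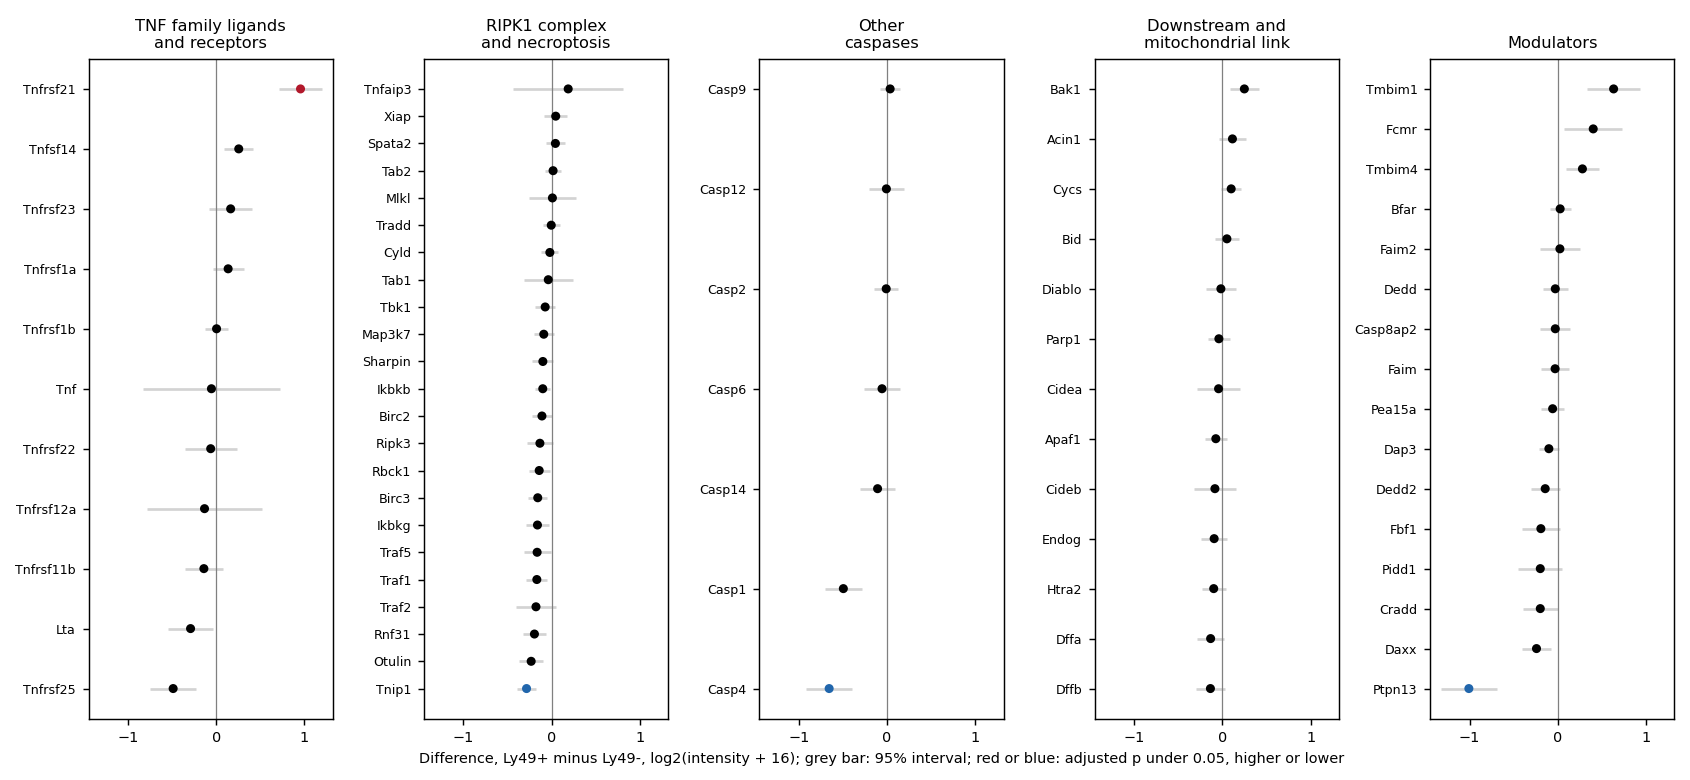
Difference between groups for the 70 further genes by list, on the log2(intensity + 16) scale (Ly49+ minus Ly49-), with points for the estimate and grey bars for 95% intervals; red marks genes that passed higher and blue lower. Tnfrsf21 is the red point at 0.96, and Tnip1, Casp4 and Ptpn13 are blue, Ptpn13 with both Ly49+ arrays below the background level.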

How the data were processed

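Per the labels, RNA of sorted cells was isolated with an RNeasy kit and labelled with biotin following Affymetrix. The authors deposited linear intensities per probe set. Array quartiles lay within 0.04 of each other (log2), and the summarisation and normalization are not given in the sources used here. Of 45101 probe sets, 64 controls were left out and 45037 tested. Names came from the platform annotation of 2016, in which 34945 probe sets had 1 symbol. Gene IDs of 34741 of them were matched to RefSeq (GRCm38.p6), which changed 0 symbols.

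Differences in log2(intensity + 16) were fitted in R 4.3.3 by limma 3.58.1 (eBayes with a trend of the spread, 2 residual and 5.05 prior degrees of freedom), each probe set on its own, with Benjamini-Hochberg adjustment over all and a threshold of 0.05. Tables were read with data.table (version 1.17.8). Further pathway genes were read by the named probe set with the highest mean. The background level was the highest reading of 27 Bacillus control probe sets. Named were all members, and of each pathway list the genes past the threshold and the 3 with the smallest p; other genes were named after their values were seen. The members and lists were chosen with earlier results of these data known. The fit was tested on simulated data. The planted differences were larger than any of the members, so the test does not show whether differences of the members' size would be detected. Alternatives were quantile normalization, pseudocounts of 1 and 64, brighter probe sets alone, 1 probe set or the mean per gene, no probe sets open to cross-hybridisation (_x_at, _s_at), no trend, a robust spread, a replicate block, a threshold of 0.1 and omission of 1 array at a time (a group left with 1 array takes its spread from the other).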

Additional observations from a re-analysis of the deposited data

How the results depend on the processing

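Of 220 values of the member probe sets under the alternatives, 205 kept their direction and side of the threshold, 3 passed it (all Fas) and 12 changed sign with no call. The count of members that passed was 1, Fas, with the brightest probe set per gene, with probe sets averaged per gene and with the replicate block, and 0 under every other alternative, among them each fit that left out 1 array (0 to 0). The cause was not tested. The count of further pathway genes, 4 in the main analysis, was 7 in both per-gene fits, 2 with a pseudocount of 64, 2 without probe sets open to cross-hybridisation, 1 without a trend and 8 with the replicate block, and from 0 to 1 when 1 array was left out. The count of all probe sets, 538, was 233 without a trend, 1033 at a threshold of 0.1 and 1415 with the replicate block, and from 31 (without Ly49- replicate 2) to 104 when 1 array was left out, where fewer samples remain. Without Ly49+ replicate 2 it was 65 and without Ly49- replicate 1 it was 49.

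Signs changed for 8 member probe sets, none of them called. When 1 array was left out the difference ranged from -0.014 to 0.055 for Casp8, -0.13 to 0.058 for Fadd (1416888_at), -0.32 to 0.094 for Tnfrsf10b (1422344_s_at), and for Cflar from -0.017 to 0.020 (1424996_at), -0.18 to 0.062 (1425686_at), -0.079 to 0.0046 (1425687_at), -0.22 to 0.016 (1449317_at) and -0.33 to 0.0045 (1453482_at). The mean of all Cflar probe sets gave -0.072, and Casp14 without probe sets open to cross-hybridisation gave 0.024, below the background level.

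Same-numbered arrays share only a number in the labels. Their deviations from the group means correlated at 0.24. With the replicate block Fas passed (adjusted p = 0.045), as did Casp1 (0.023) and Tmbim1 (0.027). With 2 arrays a group, the width of the 95% intervals limits which differences could be seen.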

Other observations

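The hybridisation controls are bacterial and phage RNAs added to every sample, and 2 generations of probe sets on the array read them. The older BioB 5' probe set read 597 on Ly49- replicate 1 and 2139, 2208 and 2102 on Ly49+ replicates 1 and 2 and Ly49- replicate 2. The newer BioB 5' probe set read 2715 on Ly49- replicate 1 and 2662, 2583 and 2499 on the others in the same order. The older BioC 5' probe set read 1416 on Ly49- replicate 1 and 5181 to 5863 on the others, and the older Cre 5' probe set 19466 against 29608 to 32367, while the newer Cre 5' probe set read 38648 against 37969 to 39385. The median intensity of that array, 189.6, lay within the range of the others.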
